A study of Mus musculus with 2 samples.

Results

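The genes of the DNA replication machinery were examined in single fetal liver cells of IκBα WT and KO mouse embryos. The 38 genes were taken by name, from 32285 genes listed in both libraries, and cover origin licensing, the MCM helicase and its activation, the polymerases and primase, the sliding clamp and its loader, single-strand binding, lagging-strand processing, nucleotide supply and histone mRNA binding. Both libraries came from E14.5 fetal livers of CD1 mice, an outbred stock, and were made with the 10x Genomics droplet method, which counts RNA molecules by their 3′ ends. The WT library pooled 2 embryos and the KO library pooled 3 embryos that lack IκBα, the NF-κB inhibitor encoded by Nfkbia. The study used a targeted Nfkbia knockout line and took embryos from matings of heterozygous parents, some of which carried a Gfi1:tomato reporter, which the labels of these libraries do not mention. With 1 library per genotype there were no replicates, no test was possible, and all intervals are 95% intervals for counting error only.

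A cell copies its DNA once per cycle. In G1 phase, ORC, CDC6 and CDT1 load the MCM2 to MCM7 helicase onto origins, and in S phase CDC45 and the GINS complex switch it on, after which the primase, the polymerases, the PCNA clamp and the enzymes that make nucleotides act together. Most of these genes are transcribed from late G1 under E2F factors, whereas genes for the spindle and for cytokinesis are transcribed later, in G2 and mitosis. The fetal liver is the site where blood stem cells and erythroid cells of the embryo divide, so that both gene groups are measured in many of its cells.

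Of 3840 WT barcodes 3458 were kept, at a median depth of 28065 UMIs (unique molecules counted), and of 4928 KO barcodes 4417, at 19560. Only 7 barcodes were present in both libraries. Nfkbia had 1478 UMIs in WT cells and 7 in KO cells, and in the stem cells described below 154 and 0. LT-HSC stands in the titles, but the sort was for LSK cells (lineage-negative, SCA1+, cKIT+). Neither label covered all cells: Kit was seen in 57.9% of WT and 44.1% of KO cells, Ly6a (SCA1) in 12.1% and 8.24%, and cells with erythroid genes and no Kit UMI made up 20.8% and 24.0%. Cells with Y-linked and no Xist UMIs were 0.116% of WT and 17.4% of KO cells. Cells were assigned to 15 types by marker genes, among them stem cells with at least 1 UMI of both Hlf and Mecom and fewer than 2 of Klf1. This gave 402 WT stem cells (median depth 17104.5 UMIs) and 340 KO stem cells (12237.5 UMIs). In these the stem cell gene Mllt3 was at 79.1 and 75.3 CPM (a gene's UMIs as a scaled share of all UMIs of the type) and Procr at 28.7 and 29.1 CPM, while the macrophage gene C1qc was at 0.405 and 0.875 CPM.

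Windows around the starts of 6 genes are shown first, because the E2F and CHR letters are known from genes of different cell cycle phases. RefSeq windows of GRCm38.p6, from 250 bases before to 50 bases after a transcription start, were found for 30 of the 38 genes. The windows were searched on both strands for the E2F letters TTTCCCGC, TTTCGCGC, TTTGCCGC and TTTGGCGC, for the letters TTTGAA of the CHR (the cell cycle homology region of late cell cycle genes) and for CCAAT. E2F letters stood in 12 of the 30 replication genes with a window, in 2 of 47 mitotic genes and in 2.60% of all 27025 genes. The CHR letters stood in 4 of the 30 replication genes, in 32 of 47 mitotic genes and in 20.2% of all genes. CCAAT was common to both, with 19 of 30 and 36 of 47 genes against 41.1% of all genes. A match describes letters and is not a bound site. Of the 4 MCM genes below, each holds at least 2 E2F matches, which are set in capitals. Not all MCM genes do: the window of Mcm2 held 0 E2F matches and 1 CHR match, and Mcm4 had no window. In Mcm5 and Mcm6, 2 matches on opposite strands overlap and form a longer run. The windows are chr1:20820263-20820562 (minus strand), chr8:75109259-75109558 (plus strand), chr1:128359656-128359955 (minus strand) and chr5:138171834-138172133 (minus strand, the one of its 2 listed windows that holds E2F letters).
Mcm3: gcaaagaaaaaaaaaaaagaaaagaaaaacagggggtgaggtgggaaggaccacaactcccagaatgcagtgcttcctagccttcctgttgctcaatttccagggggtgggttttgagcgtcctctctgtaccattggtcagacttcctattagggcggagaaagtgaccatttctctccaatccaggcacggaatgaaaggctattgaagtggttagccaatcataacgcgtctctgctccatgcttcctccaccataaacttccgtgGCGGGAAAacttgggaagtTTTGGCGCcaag
Mcm5: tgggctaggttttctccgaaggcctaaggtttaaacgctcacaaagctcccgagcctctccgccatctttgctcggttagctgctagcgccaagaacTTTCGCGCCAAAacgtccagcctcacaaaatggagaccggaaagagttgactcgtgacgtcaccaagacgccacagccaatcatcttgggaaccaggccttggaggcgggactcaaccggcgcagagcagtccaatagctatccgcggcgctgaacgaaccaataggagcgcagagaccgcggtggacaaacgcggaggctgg
Mcm6: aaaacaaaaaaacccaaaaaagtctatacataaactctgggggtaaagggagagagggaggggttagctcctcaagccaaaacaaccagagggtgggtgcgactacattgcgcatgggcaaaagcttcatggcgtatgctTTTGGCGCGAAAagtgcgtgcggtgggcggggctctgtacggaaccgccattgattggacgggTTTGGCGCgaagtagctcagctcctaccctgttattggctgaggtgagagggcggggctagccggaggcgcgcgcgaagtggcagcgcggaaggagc
Mcm7: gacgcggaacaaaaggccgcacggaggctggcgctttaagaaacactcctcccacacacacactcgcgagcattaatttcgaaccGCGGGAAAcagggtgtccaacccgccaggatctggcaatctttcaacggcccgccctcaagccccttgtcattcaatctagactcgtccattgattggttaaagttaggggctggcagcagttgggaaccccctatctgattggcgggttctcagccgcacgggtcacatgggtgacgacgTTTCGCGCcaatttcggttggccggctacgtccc

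Windows of 2 mitotic genes are shown with the CHR letters in capitals. They belong to Top2a, which untangles DNA before chromosomes part (chr11:99024140-99024439, minus strand), and to Cdk1, the mitotic kinase, whose window also holds 1 E2F match, left in lower case, and which is 1 of the 2 mitotic genes with such letters (chr10:69352863-69353162, minus strand).
Top2a: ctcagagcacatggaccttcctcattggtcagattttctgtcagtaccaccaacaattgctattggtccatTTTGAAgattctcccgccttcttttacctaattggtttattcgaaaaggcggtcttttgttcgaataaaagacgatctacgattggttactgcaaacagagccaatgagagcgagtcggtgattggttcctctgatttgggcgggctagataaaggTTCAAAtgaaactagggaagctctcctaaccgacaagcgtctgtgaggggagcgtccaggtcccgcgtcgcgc
Cdk1: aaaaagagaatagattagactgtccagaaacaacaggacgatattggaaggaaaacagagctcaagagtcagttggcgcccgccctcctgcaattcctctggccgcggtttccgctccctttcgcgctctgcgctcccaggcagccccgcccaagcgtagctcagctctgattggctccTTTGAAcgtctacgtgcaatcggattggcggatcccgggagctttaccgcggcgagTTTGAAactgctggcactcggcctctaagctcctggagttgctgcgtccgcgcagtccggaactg

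The first question was whether replication genes were expressed at another level in KO stem cells. Their summed level differed by less than the counting interval between the libraries. Summed over the 38 genes, WT stem cells had 29677 UMIs or 4004 CPM (3959 to 4050) and KO stem cells 3950 CPM (3892 to 4008), a log2 KO/WT of -0.020 (-0.047 to 0.007). All 38 genes had at least 100 UMIs over both libraries. Their median log2 KO/WT was -0.022, with 16 genes above 0 and 22 below. The 8000 genes with as many UMIs had a median of 0.0063, and 51.7% of them were above 0. Not 1 of the 38 lay at or beyond a log2 of 0.25 in either direction, where 8.45% of all genes lay higher in KO and 10.2% lower. These shares depend on depth: among genes with at least 500 UMIs, 3.38% and 3.54% lay beyond, and 0 of 30 replication genes did.

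**Figure D1:**
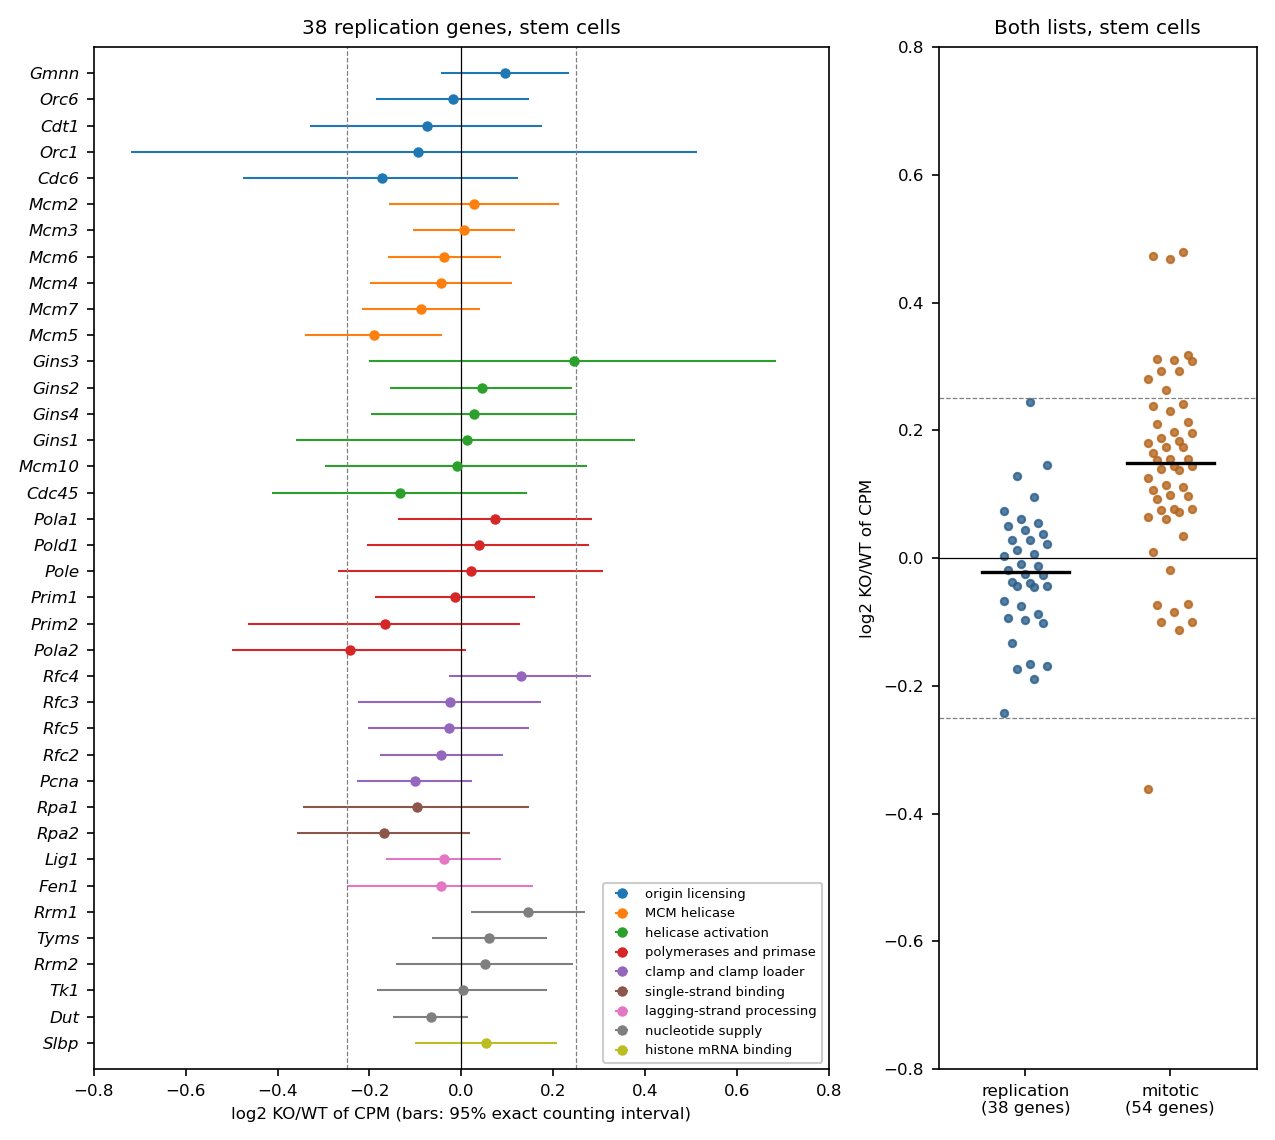
Log2 KO/WT of CPM in stem cells (402 WT, 340 KO cells, 1 library each). Left, each of the 38 replication genes, coloured by role, with 95% exact counting intervals; right, each gene of the replication list and of the mitotic list as a point with the list median as a bar. Dashed lines mark a log2 of 0.25 in either direction: no replication gene lies beyond them, whereas 11 mitotic genes lie above and 1 below, and the list medians are -0.022 and 0.149.

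Among the licensing factors, Gmnn (geminin), which holds CDT1 in check after origins have fired, was at 143 CPM (134 to 152) for WT and 153 CPM (142 to 164) for KO stem cells. Its log2 KO/WT of 0.096 (-0.044 to 0.24) was among the 5 highest of the 38. Cdc6, which helps to load the helicase, was at 36.0 CPM (31.8 to 40.6) and 31.9 CPM (27.0 to 37.6), a log2 of -0.17 (-0.47 to 0.12) and among the 5 lowest. Cdt1 was at 48.2 and 45.7 CPM, Orc6, a subunit of the origin recognition complex, at 104.8 and 103.5 CPM, and Orc1, its largest subunit, at only 8.64 and 8.09 CPM. The summed level of the 5 licensing genes was 341 CPM in WT and 342 CPM in KO, a log2 of 0.0057 (-0.086 to 0.097).

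The MCM helicase subunits Mcm2, Mcm3, Mcm4, Mcm6 and Mcm7 differed by a log2 of -0.088 to 0.028, each with an interval that included 0. Mcm3, the most counted of them, had 1710 UMIs in WT and 1059 in KO, or 231 and 232 CPM. Mcm5 stood apart from the other 5 with 142 CPM (134 to 151) for WT and 125 CPM (115 to 136) for KO, a log2 of -0.19 (-0.34 to -0.042). Over all 15 types Mcm5 was above 0 in 11. When gates were applied to thinned cells, Mcm5 turned to 0.13.

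The genes that switch the helicase on were nearly equal between the libraries when summed. Gins3, a GINS subunit, gave the highest log2 of all 38 genes, 0.24, but on 104 WT and 76 KO UMIs (14.0 and 16.6 CPM), with an interval of -0.20 to 0.68. It was at -0.19 where gates asked for 2 UMIs of each marker. Gins1, Gins2, Gins4 and Mcm10 lay between -0.01 and 0.044. Cdc45, which joins the helicase when it fires, was at 41.0 CPM in the WT and 37.4 CPM in the KO library (log2 -0.13, -0.41 to 0.14). The 6 genes together were at 245 and 247 CPM.

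Of the polymerase genes, Pola2, the second subunit of the polymerase that extends primers, was the lowest of the 38, with 50.5 CPM (45.5 to 55.8) for WT and 42.7 CPM (36.9 to 49.1) for KO (log2 -0.24, -0.50 to 0.011). Prim2, the large primase subunit, was at 36.6 and 32.6 CPM (log2 -0.17, -0.46 to 0.13). Their partners did not share this: Pola1 was at 64.2 and 67.6 CPM (log2 0.074, -0.14 to 0.28), and Prim1 at 96.5 and 95.6 CPM. Pold1 and Pole, catalytic subunits of the polymerases that copy the lagging and leading strands, were at 49.7 and 51.0 CPM and at 35.4 and 35.9 CPM. The 4 subunits of 1 complex thus spanned log2 values from -0.24 to 0.074, with every interval including 0.

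The clamp gene Pcna was at 196 CPM (186 to 206) for WT and 182 CPM (170 to 195) for KO stem cells, a log2 of -0.10 (-0.23 to 0.022). Among the loader genes, Rfc4 was at 115 CPM (108 to 123) and 126 CPM (116 to 137), a log2 of 0.13 (-0.026 to 0.28) and the third highest of the 38. Rfc2, Rfc3 and Rfc5 lay between -0.043 and -0.025. For the single-strand binding protein RPA, Rpa2 was at 88.5 and 78.8 CPM (log2 -0.17, -0.36 to 0.019) and Rpa1 at 51.0 and 47.7 CPM. The RPA genes had the lowest summed value of the 9 roles, -0.14 (-0.29 to 0.0063). Fen1 and Lig1, which trim and join lagging-strand fragments, were at -0.045 and -0.038.

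Among the genes for nucleotide supply, Rrm1, the large subunit of ribonucleotide reductase, was at 179 CPM (170 to 189) for WT and 198 CPM (186 to 212) for KO stem cells. This gave a log2 of 0.15 (0.022 to 0.27), and Rrm1 and Mcm5 were the only genes of the 38 whose interval excluded 0 in stem cells, 1 above (background 7.31%) and 1 below (background 5.96%). Rrm2, its small subunit and the regulated partner, was at 77.3 and 80.1 CPM. Tyms (thymidylate synthase), Dut (dUTPase) and Tk1 (thymidine kinase) lay between -0.067 and 0.061, Dut being the most counted gene of the list with 3277 and 1930 UMIs. Slbp, which binds histone mRNAs, was at 119 and 123 CPM.

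The other genes of replication were examined next, with a second list of 41 genes that holds further origin, polymerase and fork factors. In stem cells 40 of them had enough UMIs, with a median log2 of 0.025. Of these, 1 was higher by 0.25 or more (background 8.45%), Chtf18, a clamp loader subunit for sister chromatid cohesion (14.3 CPM in WT and 21.9 CPM in KO, log2 0.61, 0.20 to 1.02). Dscc1, which acts in the same loader, was the only 1 lower (background 10.2%; 30.0 and 22.3 CPM, log2 -0.42, -0.78 to -0.080). The highest after Chtf18 were Ticrr, Orc2 and Pold2 (0.24, 0.22 and 0.22), and the lowest after Dscc1 were Rrm2b, Rpa3 and Pold4 (-0.18, -0.16 and -0.16). Among the 40 genes, intervals lay above 0 for Chtf18, Pold2, Rnaseh2c (0.21), Dnmt1 (0.17), Tipin (0.16) and Dctpp1 (0.15), where the background was 7.31%. Only the interval of Dscc1 lay below 0 (background 5.96%). Of 16 G1/S regulators with enough UMIs, 2 were higher by 0.25 or more (background 8.45%): Rbl1, a pocket protein that restrains E2F (22.1 and 34.8 CPM, log2 0.65), and E2f8, a repressing E2F factor (21.9 and 30.0 CPM, log2 0.46). A further 3 were lower by as much against a background of 10.2% (E2f2 -0.36, Rbl2 -0.30 and E2f5 -0.27), each with an interval that included 0.

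Mitotic genes gave another picture in the same cells. Of 54 mitotic genes, 46 were above 0 and 8 below, where 51.7% of all genes were above 0. Their median log2 KO/WT was 0.149, and 11 were higher in KO by 0.25 or more (background 8.45%) and 1 lower (background 10.2%). The highest were Nuf2, a kinetochore protein (34.7 and 48.3 CPM, log2 0.48), Ttk, a checkpoint kinase (26.2 and 36.3 CPM, 0.47), Kif20a, a spindle motor (37.8 and 52.3 CPM, 0.47), and Anln, a cytokinesis protein (29.1 and 36.3 CPM, 0.32). The lowest were Ect2, which directs the cleavage furrow (40.8 and 31.7 CPM, -0.36), Bora (-0.11), Cdc25c (-0.10) and Kif23 (-0.10). The replication median was lower than the mitotic median by 0.17 on the log2 scale, and by 0.17 to 0.32 in all alternative settings. A gap in the same direction, of varied size, was seen in all other gated types except bipotent megakaryocyte-erythroid progenitors and Kit-negative early erythroblasts. The replication and mitotic medians were -0.15 and 0.29 in multipotent progenitors and 0.019 and 0.16 in lymphoid-primed cells. They were 0.027 and 0.12 in early neutrophil progenitors and 0.047 and 0.057 in late erythroid progenitors. Over all kept cells they were 0.012 and 0.058. The order was reversed in bipotent megakaryocyte-erythroid progenitors (0.088 and 0.050) and, by a small margin, in Kit-negative early erythroblasts (0.0030 and 0.0016). The replication median of stem cells was -0.051 where gates asked for 2 UMIs of each marker and 0.086 where gates were applied to cells thinned to 8000 UMIs, which kept 215 WT and 178 KO cells. In the latter setting 7 of 36 replication genes were higher by 0.25 or more (background 13.7%) and 1 lower (background 15.5%), and the mitotic median was 0.41. Among KO stem cells, replication genes were at 4041 CPM in 47 male and 3935 CPM in 263 female cells, a log2 of 0.038 (-0.022 to 0.098).

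Single stem cells showed how the 2 gene groups are related. Cells thinned to 8000 UMIs, with shallower cells left out (13 of 402 WT and 60 of 340 KO), lay along an arc: cells with few UMIs of both lists, cells with many replication UMIs and few mitotic ones, cells with both, and cells with many mitotic and few replication UMIs. The median replication count was 29 UMIs per cell in WT and 32 in KO, and 18 and 18 at 5000 UMIs. Without thinning, per 8000 UMIs, it was 28.8 and 27.5, so that no direction held. The median mitotic count was 31 and 50 at 8000 UMIs, 18 and 27 at 5000 UMIs, and 28.4 and 41.9 without thinning.

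**Figure D2:**
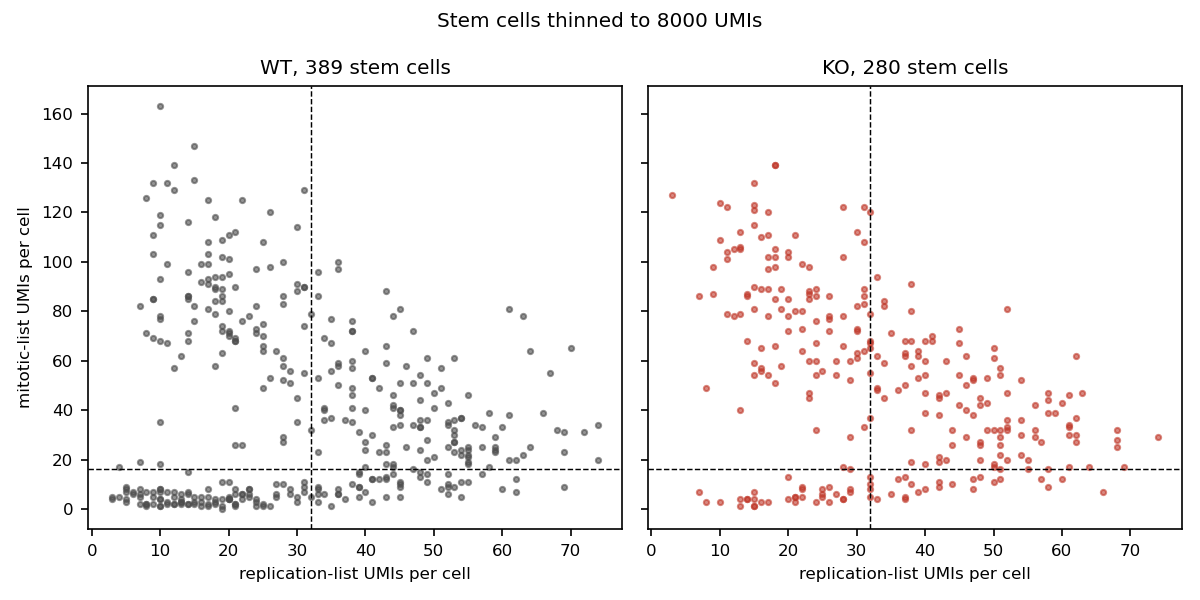
Each point is 1 stem cell thinned to 8000 UMIs (389 WT cells left, 280 KO cells right), with its UMIs over the 38 replication genes against those over the 54 mitotic genes. Dashed lines mark 32 and 16 UMIs. In both libraries the points form an arc, and 12.3% of WT and 8.93% of KO cells lie at lower right, with many replication and few mitotic UMIs.

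Cells with at least 32 replication UMIs (4000 CPM) and fewer than 16 mitotic UMIs (2000 CPM) made up 12.3% of WT cells (9.24 to 16.0) and 8.93% of KO cells (5.86 to 12.9) at 8000 UMIs. At 5000 UMIs the same CPM bounds are 20 replication and 10 mitotic UMIs, and the shares were 15.1% (11.7 to 19.0) and 9.15% (6.26 to 12.8), and 12.9% and 6.47% without thinning, lower in KO in each case, with intervals that overlapped when cells were thinned. Cells past the replication bound, whatever their mitotic count, were 45.8% and 50.7% at 8000 UMIs (at least 32 UMIs), and 46.3% and 44.8% at 5000 UMIs (at least 20 UMIs). Cells past the mitotic bound were 63.0% of WT and 79.6% of KO cells at 8000 UMIs (at least 16 UMIs), but 61.2% and 68.3% at 5000 UMIs (at least 10 UMIs). Cells low for both were 24.7% and 11.4% at 8000 UMIs and 23.7% and 22.6% at 5000 UMIs, so that the gap between the libraries was seen only where 60 shallow KO cells were left out. Of the thinned cells, 57 WT and 50 KO cells lay within 4 UMIs of the replication bound, and 30 and 26 within 4 UMIs of the mitotic bound.

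All stem cells were then grouped by mitotic CPM alone, which the replication list does not enter. Replication genes were at their peak in the middle class. In cells with under 2000 mitotic CPM they were at 3578 CPM in WT (156 cells) and 3178 CPM in KO (108 cells), in cells with 2000 to 7500 they were at 5602 CPM (126 cells) and 5416 CPM (119 cells), and in cells with 7500 or more they were at 2829 CPM (120 cells) and 2985 CPM (113 cells). Of the 38 genes, 35 were highest in the middle class in both libraries, against 13.9% of all genes, and 37 were lower in the high than in the middle class, against 27.3%. Rrm2 showed this most, with 54.5, 134 and 41.5 CPM in the low, middle and high class of WT and 33.0, 148 and 41.2 CPM in KO. Mcm2 was the exception among the 38 that was highest in the low class in both, with 111, 107 and 43.0 CPM in WT and 115, 107 and 52.3 CPM in KO. Rrm1 stayed high in the last class, with 91.9, 242 and 186 CPM in WT and 84.1, 265 and 193 CPM in KO.

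Within the classes, the replication list was at a log2 KO/WT of -0.17 (-0.23 to -0.11) in the low class, -0.049 (-0.086 to -0.011) in the middle class and 0.077 (0.028 to 0.13) in the high class. The low and the high class thus differed in opposite directions. These classes were chosen after seeing the data, and mitotic UMIs are part of the total that CPM divides by. The shares of cells in the classes were 38.8% of WT (34.0 to 43.8) and 31.8% of KO cells (26.8 to 37.0) for the low class, 31.3% and 35.0% for the middle and 29.9% and 33.2% for the high class. Cells of the low class were also the shallowest, with medians of 12626 and 8148.5 UMIs, and the part of depth in this was not tested.

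The second question was how replication genes are distributed over the cell types and the erythroid stages. They were highest in erythroblasts and late erythroid progenitors, above all other gated types in both libraries. Multipotent progenitors had 4754 CPM in the WT library, above early erythroid progenitors, but 4249.9 CPM in the KO library, next to MEP. Over the erythroid stages the summed level was 4043 CPM in WT and 4284 CPM in KO in bipotent megakaryocyte-erythroid progenitors (MEP), 4637 and 4698 CPM in early erythroid progenitors, 5339 and 5425 CPM in late erythroid progenitors, and 6326 and 6290 CPM in Kit-negative early erythroblasts. At each step the counting intervals of the 2 stages did not overlap in either library. The lowest level was in hepatocytes, with 2426 and 2596 CPM. Stem cells were in the middle, a little above early neutrophil progenitors (3898 and 3933 CPM) and lymphoid-primed cells (3820 and 3858 CPM) in both libraries. In the KO library the stem cell interval (3892 to 4008) overlapped those of both types (3887 to 3979 and 3802 to 3915). In the erythroblasts haemoglobin mRNA took 17.2% of WT UMIs, against 0.209% in stem cells, which lowers the CPM of all other genes there, and without haemoglobin, mitochondrial and ribosomal protein genes their replication level was 11836 and 12050 CPM against 6341 and 6200 CPM in stem cells.

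**Figure D3:**
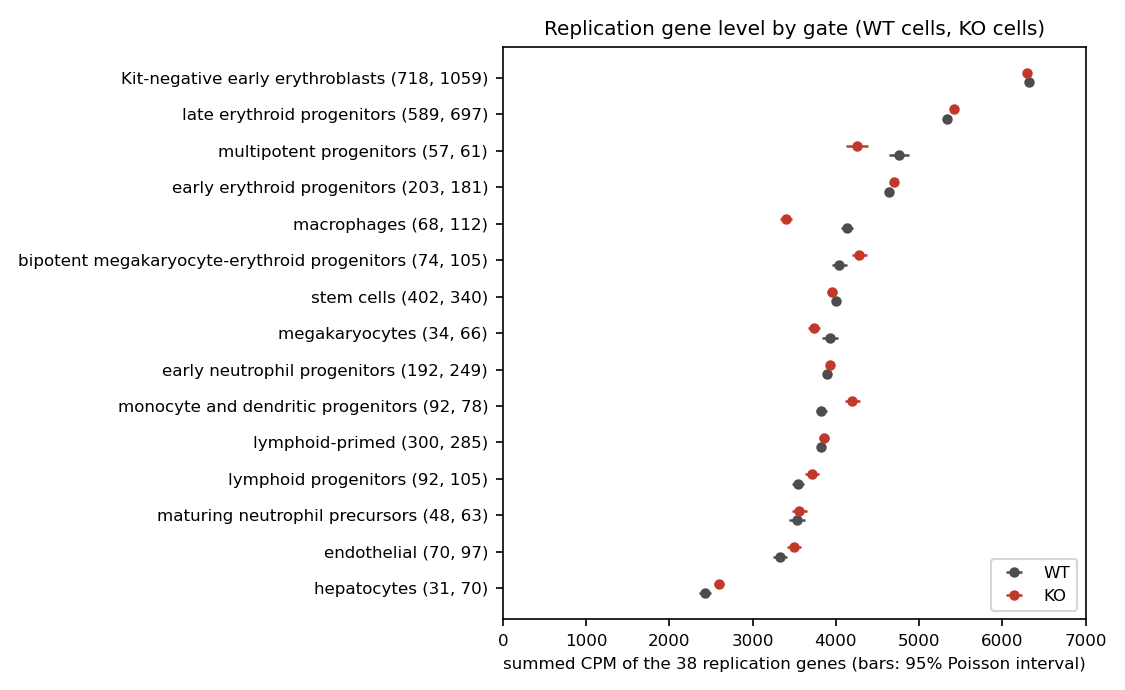
Summed CPM of the 38 replication genes in each marker-gated type, WT grey and KO red, with 95% Poisson intervals and the number of WT and KO cells in brackets. Both libraries run from 2426 and 2596 CPM in hepatocytes to 6326 and 6290 CPM in Kit-negative early erythroblasts. Macrophages show the widest gap, with 4130 CPM in WT and 3402 CPM in KO.

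Gene by gene, 22 of the 38 were highest of all 15 types in Kit-negative early erythroblasts in both libraries, against 4.83% of all genes with at least 100 UMIs, and 31 were higher there than in stem cells in both, against 18.5%. From MEP to erythroblasts 16 were higher at each of the 3 steps in both libraries, against 3.95% of all genes and 2 of 54 mitotic genes, and 0 were lower at each step in both. Without haemoglobin, mitochondrial and ribosomal protein genes 19 were higher at each step. Set against stem cells, 18 were higher in erythroblasts by a log2 of 0.5 or more in both libraries (background 11.5%) and 2 lower (background 48.4%). The median over the 38 was 0.46 in WT and 0.54 in KO, where all genes had medians of -0.54 and -0.55 and the mitotic genes 0.047 and -0.072. Without haemoglobin, mitochondrial and ribosomal protein genes, mitotic genes were higher in erythroblasts as well, at 13977 and 14252 CPM against 9300.3 and 10311 CPM in stem cells. On that scale 34 of the 38 replication genes were higher in erythroblasts than in stem cells in both libraries and 2 lower, where CPM over all UMIs gave 31 and 5. For these counts, and for the 19 genes higher at each step, the share of all genes on that scale was not computed.

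Rrm2 gave the largest difference of the 38. It was at 77.3 CPM in the WT and 80.1 CPM in the KO library stem cells, 122 and 136 CPM in MEP, 153 and 174 CPM in early and 231 and 248 CPM in late erythroid progenitors, and 524 and 522 CPM in erythroblasts, a log2 of 2.10 and 1.94 over MEP. Its partner Rrm1 went from 176 and 181 CPM in MEP to 307 and 293 CPM. Cdc6 followed Rrm2, from 31.4 and 38.6 CPM in MEP to 102 and 104 CPM, and Fen1, Pcna and Slbp behaved alike. Pcna went from 170 and 189 CPM to 421 and 413 CPM, Slbp from 159 and 155 CPM to 380 and 374 CPM, and Fen1 from 70.2 and 93.9 CPM to 190 and 195 CPM. These genes serve nucleotide supply, origin licensing, fragment processing, the clamp and histone mRNA, and so come from different steps of replication.

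A smaller group went the other way. Pold1 was at 47.1 and 47.6 CPM in MEP and 27.2 and 27.2 CPM in erythroblasts, a log2 of -0.79 and -0.81, and Pole was at 35.4 and 35.9 CPM in stem cells and 19.3 and 19.3 CPM in erythroblasts. Without haemoglobin, mitochondrial and ribosomal protein genes, Pold1 was still lower than in MEP (log2 -0.52 and -0.48), while Pole was lower than in stem cells (-0.63 and -0.60) but not than in MEP (0.11 and 0.025). Prim2 was not part of this group and was higher in erythroblasts, at 33.7 and 29.2 CPM in MEP and then 56.8 and 51.2 CPM. The clamp loader was split, with Rfc4 at 115 and 133 CPM in MEP and 240 and 245 CPM in erythroblasts, and Rfc5 at 116 and 111 CPM and then 79.3 and 80.7 CPM (log2 -0.55 and -0.46, and -0.27 and -0.13 on the other scale). Rfc2 was lower as well, at 196 and 186 CPM and then 143 and 146 CPM (log2 -0.46 and -0.35, and -0.18 and -0.020 on the other scale). Rfc3 was higher, at 66.0 and 57.5 CPM and then 88.6 and 83.1 CPM. Dut was at 832 and 794 CPM in late erythroid progenitors and at 580 and 549 CPM in erythroblasts. Mcm10 was also lower in erythroblasts than in late progenitors, on both scales. Cdt1 was lower there by CPM over all UMIs (80.3 and 83.5 CPM, then 75.8 and 78.2 CPM) but higher on the other scale (log2 0.22 and 0.23).

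**Figure D4:**
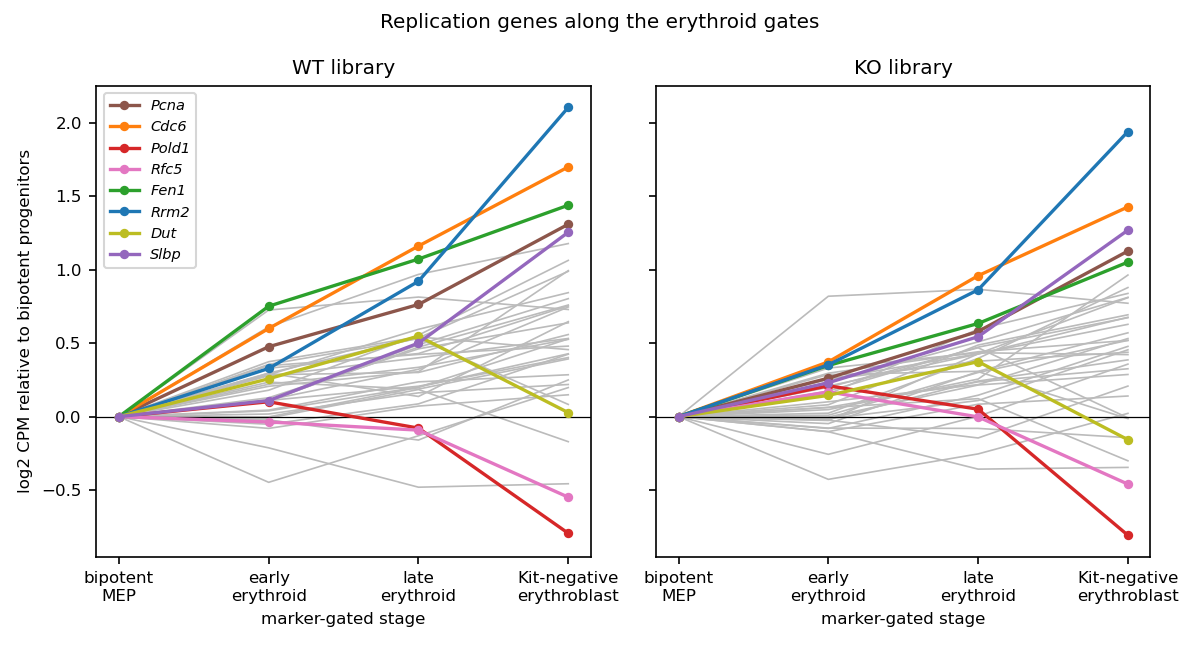
Log2 CPM of each of the 38 replication genes relative to bipotent megakaryocyte-erythroid progenitors (MEP), over 4 marker-gated erythroid stages, WT left and KO right, 1 library each. Named genes are coloured and the rest grey. Rrm2 ends highest in both libraries (2.10 and 1.94), and Pold1 ends lowest (-0.79 and -0.81).

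The roles differed in size of this step. From stem cells to erythroblasts the licensing genes went from 341 and 342 CPM to 677 and 681 CPM, nucleotide supply from 964 and 973 CPM to 1764 and 1706 CPM, and lagging-strand processing from 260 and 252 CPM to 473 and 491 CPM. The MCM helicase went from 958 and 924 CPM to 1233 and 1281 CPM. The polymerases and primase were at 333 and 325 CPM in stem cells and at 336 and 321 CPM in erythroblasts, the smallest step of the 9 roles. On the scale without haemoglobin, mitochondrial and ribosomal protein genes they were higher in erythroblasts by a log2 of 0.26 and 0.27, still the smallest of the 9. The 12 genes with E2F letters in their window had medians of 0.36 and 0.45 for erythroblasts over stem cells, and the 18 without had 0.49 and 0.52.

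KO against WT, the erythroid stages were close to 0. The list median was 0.088 in MEP, 0.021 in early and 0.047 in late erythroid progenitors and 0.0030 in Kit-negative early erythroblasts. In the erythroblasts, the type with the most cells (718 WT and 1059 KO), 0 of 38 genes lay at or beyond 0.25 (background 8.48% higher and 6.51% lower), all lay between -0.16 and 0.12, and the interval excluded 0 for 4 genes above (background 8.13%) and 9 below (background 11.8%). The highest there were Cdc45 (0.12) and Mcm2 (0.12), at 122 and 133 CPM, and the lowest Gins3 (-0.16) and Pola2 (-0.16). In late erythroid progenitors 0 of 38 lay beyond 0.25 (background 8.73% and 4.4%), Gins1 (0.17) and Mcm2 (0.16) being highest and Cdc45 and Prim2 (-0.13 each) lowest. In that type 27 genes were above 0 and 11 below, where 55.0% of all genes were above 0. The interval excluded 0 for 10 genes above and 3 below, and the share of all genes for this was not computed. In early erythroid progenitors 0 of 38 were higher (background 7.31%) and 2 lower (background 11.1%), Prim2 (42.4 and 34.4 CPM, -0.30) and Gins1 (27.8 and 23.3 CPM, -0.25), and Pole (0.21) and Rrm2 (0.18) were highest. In MEP 6 of 36 were higher (background 15.8%) and 0 lower (background 12.6%), led by Fen1 (70.2 and 93.9 CPM, 0.42) and Pola2 (0.31), with Rpa2 (-0.22) and Prim2 (-0.21) lowest. The MEP median was -0.019 where gates asked for 2 UMIs of each marker.

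**Figure D5:**
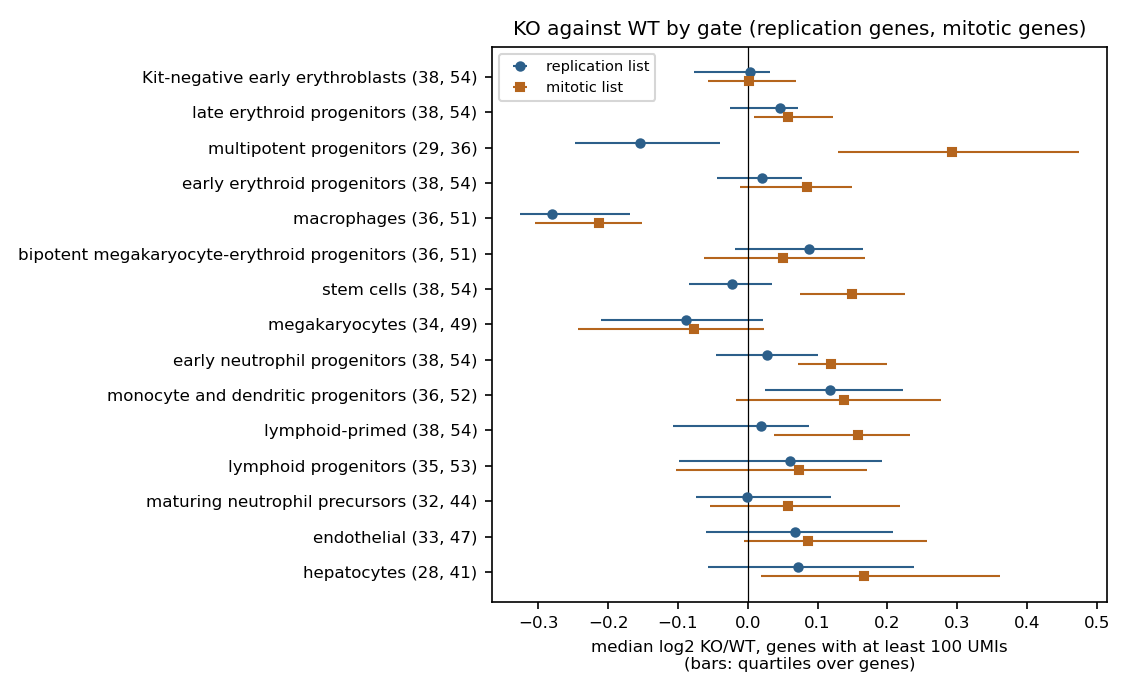
Median log2 KO/WT of the replication list (circles) and the mitotic list (squares) in each marker-gated type, with bars for the quartiles over genes and, in brackets, the number of replication and mitotic genes with at least 100 UMIs. Replication medians lie between -0.15 and 0.12 except in macrophages (-0.28). In stem cells, multipotent progenitors and, by a small margin, maturing neutrophil precursors the 2 lists lie on opposite sides of 0. The mitotic median lies above the replication median in all types except bipotent megakaryocyte-erythroid progenitors and Kit-negative early erythroblasts. In lymphoid-primed cells both medians lie above 0 (0.019 and 0.16).

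The other progenitors gave medians from -0.15 to 0.12. In early neutrophil progenitors the median was 0.027, 1 gene was higher (background 9.23%) and 2 lower (background 7.29%), from Prim2 (40.2 and 29.1 CPM, -0.47) and Pole (-0.26) to Orc1 (0.17) and Rrm2 (123 and 148 CPM, 0.27). In lymphoid-primed cells it was 0.019, with 2 genes higher (background 11.7%) and 0 lower (background 8.34%), from Rfc3 (-0.22) and Prim1 (-0.19) to Pole (0.26) and Mcm2 (78.3 and 94.2 CPM, 0.27). In lymphoid progenitors it was 0.061, with 6 of 35 higher (background 15.5%) and 4 lower (background 10.2%), from Prim1 (-0.31) and Tk1 (-0.27) to Pole (0.43) and Pold1 (0.44). Monocyte and dendritic progenitors had the highest median, 0.12, with 8 of 36 genes higher (background 15.7%) and 0 lower (background 11.2%), among them Tk1 (60.7 and 83.4 CPM, 0.46) and Mcm2 (70.2 and 96.2 CPM, 0.45), and with Cdc45 (-0.14) and Rfc2 (-0.13) lowest. Maturing neutrophil precursors were at -0.00058, with 3 of 32 higher (background 14.1%) and 3 lower (background 10.6%), from Orc6 (94.6 and 61.6 CPM, -0.62) and Tk1 (-0.49) to Mcm2 (0.35) and Cdc45 (0.45).

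Multipotent progenitors, defined by Kit and Cd34 without Hlf and Mecom, were few (57 WT and 61 KO cells). Their replication median was -0.15 over 29 genes, with 0 higher (background 17.3%) and 7 lower by 0.25 or more (background 13.8%), and their mitotic median was 0.29. Rfc3 was at 88.9 and 52.0 CPM (-0.77) and Tyms at 236 and 158 CPM (-0.58), while Mcm4 (0.10) and Rfc4 (0.085) were highest. The platelet gene Pf4 was at 13.7 CPM in the WT and 123 CPM in the KO library in this type, and its part in the result was not tested. With gates on thinned cells the replication median was 0.10.

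Macrophages were the type with the largest difference, with a median of -0.28. Of 36 genes 35 were below 0, where 54.6% of all genes were above 0. By 0.25 or more, 22 were lower (background 13.8%) and 0 higher (background 24.7%). Dut was at 480 and 337 CPM (-0.51, -0.63 to -0.39), Pold1 at 49.7 and 36.5 CPM (-0.44), Pola1 at 46.9 and 46.5 CPM (-0.012), and Fen1, the only gene above 0, at 84.4 and 98.2 CPM (0.22). Mitotic genes were lower too, with a median of -0.21. In this type all 6 macrophage markers were lower in WT (C1qa at 550 and 1084 CPM, Marco at 251 and 544 CPM), the WT cells were deeper (medians of 39407 and 18895 UMIs), Klf1 was at 110 and 84.5 CPM, and Scrublet called 4 of 68 WT and 16 of 112 KO cells as doublets. The part of these in the result was not tested. The median was -0.34 without the called cells and -0.18 in female cells.

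Of the remaining types, hepatocytes (31 WT and 70 KO cells) had a median of 0.072 with 7 of 28 genes higher (background 18.2%) and 1 lower (background 10.4%), from Gins4 (-0.36) and Tyms (-0.21) to Cdt1 (0.43) and Rfc2 (0.46). Endothelial cells had a median of 0.068 with 4 of 33 higher (background 16.8%) and 2 lower (background 12.4%), from Rpa2 (-0.39) and Pola2 (-0.29) to Mcm3 (0.38) and Pold1 (0.39). Megakaryocytes had a median of -0.088 with 1 of 34 higher (background 15.3%) and 6 lower (background 13.2%), from Cdc6 (-0.38) and Tyms (-0.36) to Mcm3 (0.22) and Mcm4 (0.27).

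Some genes leaned 1 way over the 15 types, which come from the same pair of libraries and are not replicates. Mcm3 was above 0 in 14 of 15 types and Mcm2 in 13 of 15, with medians over types of 0.060 and 0.14, and both were lower only in macrophages and, for Mcm2, in 1 other type. Prim1 was below 0 in 13 of 15, Prim2 in 11 of 13, Cdc45 in 10 of 12 and Rpa2 in 12 of 15, with medians of -0.11, -0.13, -0.14 and -0.17. Rfc3 was below 0 in 12 of 15 and Rfc4 above 0 in 12 of 15, with medians of -0.093 and 0.085. The share of all genes that leaned as far was not computed. Over all kept cells Prim2 was at 43.0 CPM in the WT and 38.4 CPM in the KO library, on 4653 and 3808 UMIs (log2 -0.16, -0.22 to -0.10), and was the lowest of the 38 there. Between cell types, Rrm2 differed by a log2 of 2.76 in WT and 2.71 in KO from stem cells to erythroblasts.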

How the data were processed

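Single cells of fetal liver were profiled in 1 WT and 1 KO library. The authors deposited raw UMI counts per gene and barcode, from the 3′ v3 droplet protocol, made with Cell Ranger (version 6.0.0, build mm10, per the labels), with the annotation release not given in the sources used here. UMIs count molecules, so PCR copies do not add.

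Python 3.11.15 with numpy 2.4.6 and pandas 2.3.3 was used. Cells under 1000 genes or over 20% mitochondrial UMIs were dropped, and cells called doublets by Scrublet (scanpy 1.11.5; 3.79% of WT and 5.66% of KO cells) stayed in. Gates asked for 1 to 20 UMIs of marker genes, and the first gate passed gave the type. Gate rules were settled after detection rates had been seen, and 14.1% of WT and 19.2% of KO cells passed none. Type names are rebuilt and may not match the study's. UMIs were summed per type and scaled to CPM, with exact Poisson intervals (scipy 1.17.1). Log2 KO/WT has exact conditional intervals and shares Clopper-Pearson intervals, all at 95%. The sums, folds and intervals were checked on simulated counts. Genes with at least 100 UMIs over both libraries of a type entered medians. Members, lists and tests were chosen with earlier results of these data known. The named genes were the 5 highest and lowest in stem cells, 2 each in other types, 4 each of the other lists, and further genes chosen after their values were seen. Classes by mitotic CPM, the 5000-UMI thinning, the 500-UMI minimum, the sex split of KO stem cells and the scaling of single genes and roles without haemoglobin, mitochondrial and ribosomal protein genes were added after seeing the data. Alternatives changed the cell filter, doublets, gates, scaling, averaging, sex, gene minimum, fold and thinning depth.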

Additional observations from a re-analysis of the deposited data

How the results depend on the processing

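No paired analysis was possible because WT and KO had 1 library each, and no replicate could be left out. Of the values recomputed under the alternatives, 237 moved by less than a tolerance set by counting error or the spread over genes or cells or, for counts of members, by up to 1.5 times, and 87 moved by more. The replication median was below the mitotic median in stem cells in all settings run. Without Scrublet calls there were replication medians of 0.23 in hepatocytes, -0.34 in macrophages, -0.0096 in early neutrophil progenitors and 1 stem cell member past the fold and lower in KO. Under gates on cells thinned to 8000 UMIs there were replication medians of 0.086 in stem cells, 0.29 in endothelial cells, -0.20 in macrophages, 0.00028 in megakaryocytes, 0.19 in monocyte and dendritic progenitors, 0.16 in early erythroid progenitors, 0.064 in late erythroid progenitors, -0.058 in lymphoid progenitors, 0.15 in lymphoid-primed cells, 0.10 in multipotent progenitors, 7 stem cell members past the fold and higher in KO, 1 stem cell member past the fold and lower in KO, a stem cell mitotic median of 0.41, a replication minus mitotic median of -0.32 and a summed stem cell log2 of 0.10. With 2 UMIs of each required marker there were replication medians of -0.051 in stem cells, 0.15 in endothelial cells, 0.18 in monocyte and dendritic progenitors, 0.033 in late erythroid progenitors, -0.019 in bipotent megakaryocyte-erythroid progenitors, 0.011 in lymphoid progenitors, -0.030 in lymphoid-primed cells, 2 stem cell members past the fold and higher in KO, 3 stem cell members past the fold and lower in KO, a stem cell mitotic median of 0.22 and a replication minus mitotic median of -0.27. Under CPM without haemoglobin, mitochondrial and ribosomal protein genes there were replication medians of -0.34 in macrophages, 0.037 in Kit-negative early erythroblasts and 1 stem cell member past the fold and lower in KO. On that scale the summed WT and KO levels in CPM were 3389 and 3606 in hepatocytes, 4981 and 5135 in endothelial cells, 6200.2 and 4915 in macrophages, 5824 and 5440.5 in megakaryocytes, 5336 and 5344 in maturing neutrophil precursors, 6011 and 5992 in early neutrophil progenitors, 5914 and 6416 in monocyte and dendritic progenitors, 11836 and 12049.8 in Kit-negative early erythroblasts, 7117 and 7194 in early erythroid progenitors, 8109 and 8281 in late erythroid progenitors, 6341 and 6200.4 in stem cells, 6241 and 6548 in bipotent megakaryocyte-erythroid progenitors, 5572 and 5759 in lymphoid progenitors, 6097 and 6075 in lymphoid-primed cells, 7527 and 6689 in multipotent progenitors. With median-of-ratios scaling there were replication medians of 0.033 in late erythroid progenitors, -0.0087 in lymphoid-primed cells. Under a mean over cells of CPM per cell there were replication medians of 0.13 in hepatocytes, -0.031 in megakaryocytes, -0.059 in maturing neutrophil precursors, -0.0040 in early erythroid progenitors, -0.090 in multipotent progenitors, 1 stem cell member past the fold and lower in KO, a stem cell mitotic median of 0.17 and a replication minus mitotic median of -0.21. With female cells only there were replication medians of -0.18 in macrophages, -0.022 in Kit-negative early erythroblasts, 0.024 in late erythroid progenitors, 1 stem cell member past the fold and higher in KO, a stem cell mitotic median of 0.18 and a replication minus mitotic median of -0.21. Under a fold of 0.15 there was 1 stem cell member past the fold and higher in KO and 5 stem cell members past the fold and lower in KO. Among the settings with member counts in this paragraph, the share of all genes was computed only for gates on thinned cells. There, 13.7% of all genes were higher in KO and 15.5% lower. For genes with at least 500 UMIs there were replication medians of 0.0083 in hepatocytes, -0.0057 in megakaryocytes, 0.13 in lymphoid progenitors. With cells thinned to 5000 UMIs there was a KO minus WT median of 0 replication UMIs per stem cell. With unthinned cells and list UMIs per 8000 UMIs there was a KO minus WT median of -1.28 replication UMIs per stem cell. The causes of these moves were not tested. Depth limits genes under 100 UMIs. Thinning to 8000 UMIs left out 13 of 402 WT and 60 of 340 KO stem cells. The part of the lower KO depth in the number of cells that passed a gate was not tested.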
